A study of Mus musculus with 16 samples.

Results

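The AP-1 and EGR factors are 10 genes of the immediate early class, measured here by the array probes that carry their names. They are the FOS family genes Fos, Fosb, Fosl1 and Fosl2, the JUN family genes Jun, Junb and Jund, the zinc finger genes Egr1 and Egr2, and Ier2. All 10 were among the 21985 genes and transcripts tested, through 11 of the 55681 probes of the array. RNA came from 16 mouse melanoma biopsies, with 4 biopsies in each group, which were untreated tumours, tumours treated for 4 days, tumours treated for 60 days, and tumours resistant to treatment at 120 days. The series title names BRAF inhibitors as the treatment, while no label used here states the drug, the mouse strain, its alleles, its age or the number of animals. The tumour RNA was labelled with Cy5 and hybridised against 1 pooled mouse reference RNA in Cy3, so each value is a log2 ratio of tumour over reference. The ratio compares 1 gene between biopsies and does not rank the genes against each other. No source used here says that the biopsies came from separate animals, and p-values measure the spread between these biopsies. In whole biopsies, fewer cells of a type and less RNA per cell cannot be told apart.

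Immediate early genes are switched on within minutes of a growth signal or a stress, without new protein synthesis. ERK, the last kinase of the RAF cascade, acts on several of them through the ETS factors bound beside SRF at their promoters and through kinases that act on CREB. FOS and JUN proteins pair to form AP-1, which binds short sites of the form TGANTCA, and EGR proteins bind GC-rich sites of the form GCGNGGGCG. Mutant BRAF keeps ERK active in many melanomas, and FOSL1 protein is stabilised by that activity. Handling of tissue can also induce several of them.

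The stretches before the transcription start are shown because Fosb, Jun and Jund followed each other across all biopsies, with the slides pooled, while Fos and Egr2 ran opposite. A link between the stretches and these correlations was not tested. The signals above act at promoters, but sites farther from the start than 250 bases were not searched. A form not found here can therefore lie outside the stretch. RefSeq windows for GRCm38.p6 matched 7 of the 10 genes by symbol (Fos, Fosb, Fosl2, Jun, Junb, Jund and Egr2), and the 250 bases before the start were searched. Each is printed 5′ to 3′ on the strand of its gene, with matched letters in capitals. The Fos stretch lies at chr12:85473640-85473889 (plus strand), the Fosb stretch at chr7:19310046-19310295 (minus strand), the Jun stretch at chr4:95052223-95052472 (minus strand) and the Jund stretch at chr8:70697489-70697738 (plus strand). Egr2 has 5 starts in the table, and 30 bases of the window with the most matches are shown, at chr10:67537792-67537821 (plus strand).
Fos: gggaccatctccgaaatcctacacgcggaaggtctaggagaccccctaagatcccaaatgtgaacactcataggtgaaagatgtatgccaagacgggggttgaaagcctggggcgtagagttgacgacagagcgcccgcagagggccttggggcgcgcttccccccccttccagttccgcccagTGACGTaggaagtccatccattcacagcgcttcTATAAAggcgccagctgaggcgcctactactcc
Fosb: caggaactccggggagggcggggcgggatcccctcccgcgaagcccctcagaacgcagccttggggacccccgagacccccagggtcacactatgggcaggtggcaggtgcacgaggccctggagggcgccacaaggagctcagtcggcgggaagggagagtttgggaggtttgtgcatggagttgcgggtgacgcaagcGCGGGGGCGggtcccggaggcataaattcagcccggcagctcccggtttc
Jun: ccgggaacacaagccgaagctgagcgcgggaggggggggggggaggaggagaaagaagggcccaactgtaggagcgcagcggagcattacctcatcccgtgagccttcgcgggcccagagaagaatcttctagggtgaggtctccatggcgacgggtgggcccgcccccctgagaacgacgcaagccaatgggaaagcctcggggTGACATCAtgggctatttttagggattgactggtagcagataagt
Jund: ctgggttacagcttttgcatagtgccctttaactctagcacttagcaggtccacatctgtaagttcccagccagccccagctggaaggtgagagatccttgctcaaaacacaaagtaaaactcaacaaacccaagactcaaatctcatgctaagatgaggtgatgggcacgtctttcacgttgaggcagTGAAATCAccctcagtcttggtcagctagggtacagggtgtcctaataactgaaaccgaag
Egr2: tcagtCCATATATGGgcagcgACGTCAcgg

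The Fos stretch holds TGACGT, the core of a CREB site, 66 to 61 bases before the start, and TATAAA 33 to 28 bases before it. The Egr2 stretch holds a CArG box, the element bound by SRF, 72 to 63 bases before the start, and TGACGT on the other strand 56 to 51 bases before it. The Jun stretch holds TGACATCA and the Jund stretch TGAAATCA, both of the 8-letter AP-1 form TGANNTCA. The EGR form GCGNGGGCG was found before Fosb and Fosl2. Fosb, Jun and Jund had no form common to all of them, and Fos and Egr2 both had TGACGT. No window of the 7 held the 7-letter form TGANTCA, and the Junb window held none of the 6 forms searched. All forms were searched on both strands except TATAAA, which was read on the strand of the gene. TGACGT and TGANNTCA can overlap where a full palindrome is present, and no such overlap occurred here. Among 32851 windows of the same length, 1.47% held a CArG box, 6.75% TGANTCA, 11.9% TGANNTCA, 6.47% TGACGT, 4.7% GCGNGGGCG and 7.59% TATAAA. The shares are per window and do not apply to the Egr2 window, which was picked from 5 for its matches. All matches named are matches of letters and no measure of binding.

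Several facts of the arrays touch the values below. The arrays lay on 2 slides with 2 biopsies of every group on each, replicates 3 and 4 on slide 1 and replicates 1 and 2 on slide 2, and position on the slide followed the group, which cannot be told apart. In the 60-day and resistant groups the 2 biopsies on a slide also share a code in their titles. Untreated replicates 1, 2 and 3 share a code too, and untreated replicate 4 has another. Each 4-day biopsy has a code of its own, and no label explains the codes. Resistant replicate 1 stood apart, with a median correlation of 0.697 with the other arrays across genes, against 0.836 to 0.916 for the other 15 arrays. It also had the lowest level of 8 keratinocyte markers, with a mean log2 ratio of 1.52. Melanocyte markers were detected in all biopsies, 7 to 9 of 9 above background. Their lowest mean log2 ratio of all 16, 1.15 with 7 of 9 above background, was that of resistant replicate 1. The same biopsy had the highest means of macrophage and monocyte markers (2.46) and of fibroblast markers (3.80). Every factor's probe was above background on 16 arrays, except Junb on 15, and none was saturated.

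No factor passed the test in any comparison between the 4 groups. At an adjusted p under 0.05 in limma, the test called 1.34% of all genes between 4-day and untreated tumours and 0.819% between 60-day and untreated tumours, and 0 of the 10 factors in either. Between resistant and untreated tumours it called 0.0182% of all genes, and between resistant and 4-day tumours 0.00455%. It called 0% of genes between resistant and 60-day tumours, where 1247 genes had an unadjusted p under 0.05, and 0% between 60-day and 4-day tumours, where 412 did. An unadjusted p under 0.05 was found for 1 of 10 factors between resistant and untreated tumours (Junb; 9.52% of all genes) and for 2 between resistant and 4-day tumours (Junb and Ier2; 8.19% of all genes). In the other 4 comparisons it was found for 0 factors, against 16.7% of genes at 4 days and 18.7% at 60 days relative to untreated tumours, 5.67% between resistant and 60-day tumours and 1.87% between 60-day and 4-day tumours. A test for any difference among the 4 groups called 0.268% of genes and no factor, with the lowest adjusted p of the factors in Junb (0.426 by limma's F test). The median difference of the 10 factors from untreated tumours was 0.11 at 4 days, 0.11 at 60 days and 0.19 in resistance, against -0.01, 0.00094 and 0.01 over all genes tested. Relative to untreated tumours 7 factors had a difference above 0 at 4 days, 7 at 60 days and 8 in resistance, against 48.7%, 50.2% and 52.2% of all genes.

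**Figure D1:**
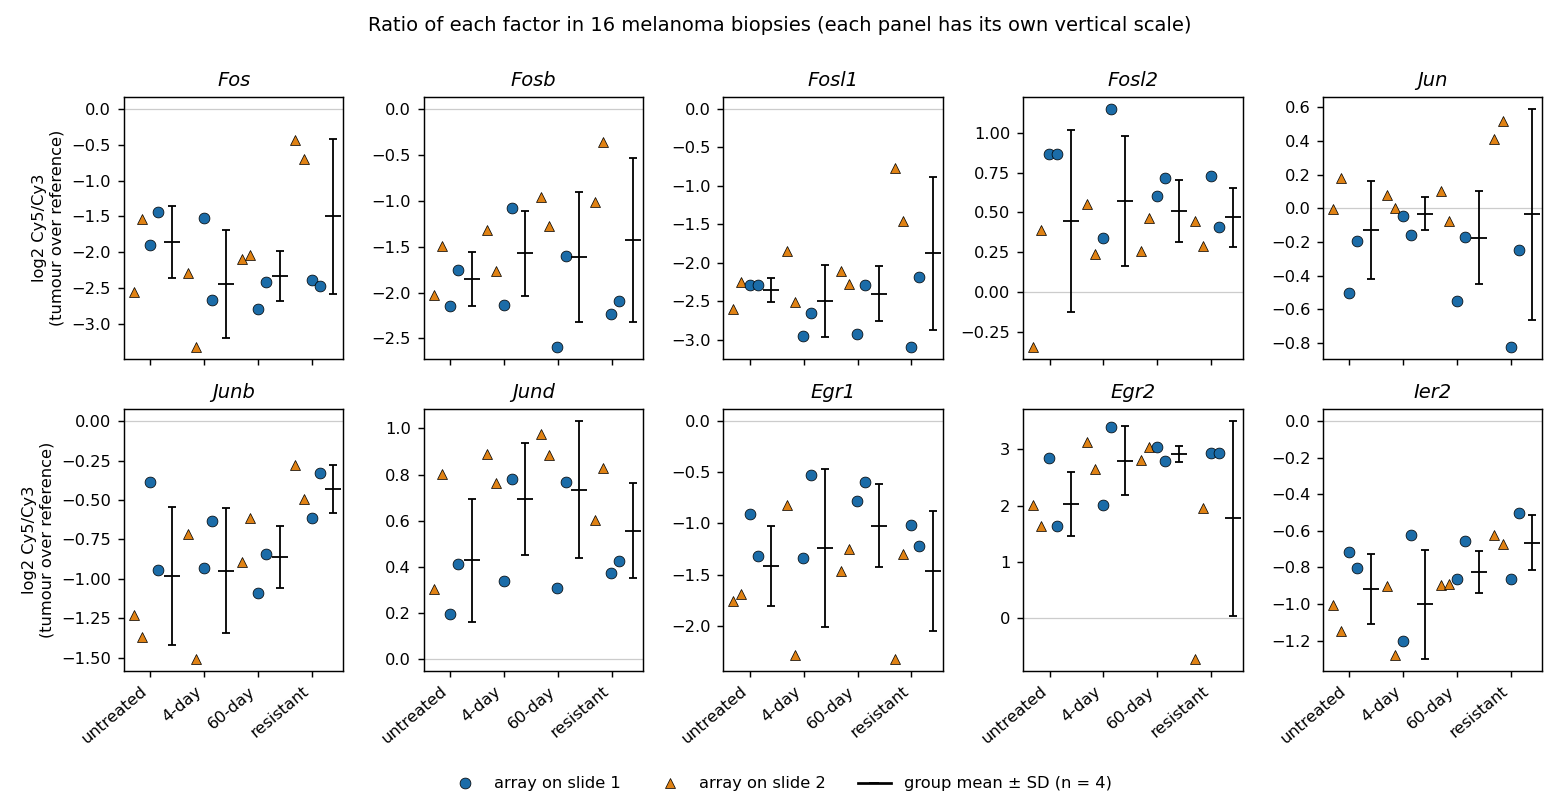
Log2 ratio of tumour over reference (vertical axis, with a scale of its own in each panel) for the 10 factors in 4 groups of 4 biopsies, circles for slide 1 and triangles for slide 2, with the group mean ± SD at the right of each group. The resistant biopsies on slide 2 stand above those on slide 1 for Fos (-0.43 and -0.70, against -2.38 and -2.48), and the groups overlap in most panels.

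Fos, the founding partner of AP-1, was lower than the reference RNA in all 16 biopsies. Its log2 ratio was -2.55, -1.54, -1.90 and -1.44 in untreated tumours, -2.30, -3.33, -1.52 and -2.66 at 4 days, -2.10, -2.03, -2.80 and -2.41 at 60 days, and -0.43, -0.70, -2.38 and -2.48 in resistant tumours. The highest values were those of resistant replicates 1 and 2, while resistant replicates 3 and 4 lay within the range of the 4-day tumours. The array carries 10 copies of the Fos probe, whose SD within an array was 0.04 to 0.11, against 0.73 between biopsies of a group. Fos was -0.60 ± 0.47 (SE, n = 4 and 4) at 4 days relative to untreated tumours (adjusted p = 0.602 by limma) and -0.48 ± 0.47 at 60 days (adjusted p = 0.643). It was 0.36 ± 0.47 in resistant relative to untreated tumours (adjusted p = 0.876) and 0.95 ± 0.47 relative to 4-day tumours (adjusted p = 0.635). Within slides the resistant minus 4-day difference was 2.25 on slide 2 and -0.34 on slide 1, so its sign differed between the slides. The 95% interval of the 4-day difference, -1.61 to 0.42, spans 0.

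Fosl1 and Fosb showed the same split of the resistant group. Fosl1, which encodes FRA-1, had log2 ratios of -2.60, -2.25, -2.29 and -2.28 in untreated tumours, -1.85, -2.51, -2.96 and -2.66 at 4 days, -2.11, -2.27, -2.93 and -2.30 at 60 days, and -0.77, -1.46, -3.10 and -2.19 in resistant tumours. Its untreated biopsies differed little, with an SD of 0.16, while the resistant ones held both the highest and the lowest value of all 16. Fosl1 was -0.14 ± 0.38 at 4 days (adjusted p = 0.929 by limma), -0.05 ± 0.38 at 60 days (adjusted p = 0.970) and 0.48 ± 0.38 in resistance (adjusted p = 0.759), each relative to untreated tumours. The lowest value, -3.10, was that of resistant replicate 3, and without that biopsy the resistant difference was 0.88 (adjusted p = 0.284 by limma). The highest, -0.77, was that of resistant replicate 1, the biopsy that stood apart. Within slides the resistant minus untreated difference of Fosl1 was 1.31 on slide 2 and -0.36 on slide 1, so its sign differed between the slides. Fosb, whose splice form deltaFosB is long-lived, ranged from -2.14 to -1.49 in untreated tumours, -2.13 to -1.08 at 4 days and -2.59 to -0.96 at 60 days. In resistant tumours Fosb was -1.01 and -0.36 on slide 2 and -2.23 and -2.10 on slide 1. Its difference from untreated tumours was 0.28 ± 0.41 at 4 days, 0.24 ± 0.41 at 60 days and 0.43 ± 0.41 in resistance, with adjusted p-values of 0.835, 0.824 and 0.809 by limma.

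Fosl2, which encodes FRA-2, was near the reference level in every group. Its group means were 0.44 ± 0.57, 0.57 ± 0.41, 0.51 ± 0.20 and 0.47 ± 0.19 (SD, n = 4 each) in untreated, 4-day, 60-day and resistant tumours. Untreated replicate 1, at -0.35, was the one biopsy below the reference. A second, dimmer Fosl2 probe, above background on 11 arrays, differed by at most 0.19 ± 0.13 between any pair of groups (resistant minus 60-day, adjusted p = 0.919 by limma).

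Among the JUN genes, Junb had the clearest separation. Junb, a JUN protein that is often a weaker activator than JUN itself, had log2 ratios of -1.23, -1.37, -0.38 and -0.95 in untreated tumours, -0.72, -1.51, -0.93 and -0.63 at 4 days, -0.89, -0.62, -1.09 and -0.84 at 60 days, and -0.28, -0.49, -0.61 and -0.33 in resistant tumours. All 4 resistant biopsies lay above all 4-day and all 60-day biopsies, while 1 untreated biopsy lay among the resistant ones. The lowest value, -1.51 in 4-day replicate 2, came from the 1 array on which Junb was not above background. A resistant group wholly above the other was found for 1.4% of all genes against 4-day tumours and for 1.11% against 60-day tumours. Junb was 0.55 ± 0.22 in resistant relative to untreated tumours, a fold of 1.47 (unadjusted p = 0.0225, adjusted p = 0.413 by limma). It was 0.52 ± 0.22 relative to 4-day tumours (adjusted p = 0.572) and 0.43 ± 0.22 relative to 60-day tumours (adjusted p = 0.868). With the processed signals of the scanner software Junb was 0.88 relative to untreated tumours (adjusted p = 0.474) and 0.98 relative to 4-day tumours (adjusted p = 0.614). With median centring in place of loess the lowest adjusted p of any factor in any comparison was 0.828 by limma. Within slides, resistant minus untreated was 0.91 on slide 2 and 0.19 on slide 1.

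Jun, the main JUN partner of FOS, and Jund, the member of the family that is present without a stimulus, passed the test in no group comparison. Jun had log2 ratios of -0.01, 0.18, -0.50 and -0.19 in untreated tumours, 0.08, -0.00076, -0.05 and -0.16 at 4 days, 0.10, -0.08, -0.55 and -0.17 at 60 days, and 0.41, 0.52, -0.82 and -0.25 in resistant tumours. The 2 highest and the lowest values of all 16 were again resistant. Jun differed from untreated tumours by 0.10 ± 0.25 at 4 days, by -0.05 ± 0.25 at 60 days and by 0.09 ± 0.25 in resistance (adjusted p of 0.922, 0.955 and 0.950 by limma). Jund averaged 0.43 ± 0.27, 0.69 ± 0.24, 0.73 ± 0.30 and 0.56 ± 0.21 (SD, n = 4 each) in untreated, 4-day, 60-day and resistant tumours. At 60 days Jund was 0.31 ± 0.18 relative to untreated tumours, the lowest adjusted p of any factor in any comparison (0.379 by limma).

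Ier2, a short immediate early gene whose product acts in the nucleus, ranged from -1.14 to -0.72 in untreated tumours, -1.28 to -0.62 at 4 days, -0.90 to -0.65 at 60 days and -0.87 to -0.50 in resistant tumours. The ranges overlap in every pair of groups. Ier2 was 0.34 ± 0.15 in resistant relative to 4-day tumours (unadjusted p = 0.0375, adjusted p = 0.586 by limma) and 0.25 ± 0.15 relative to untreated tumours (adjusted p = 0.633).

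The EGR genes differed in opposite ways from the reference RNA. Egr1, a rapid ERK-responsive gene, was below it in all biopsies, at -1.75, -1.69, -0.91 and -1.32 in untreated tumours, -0.82, -2.29, -1.34 and -0.52 at 4 days, -1.47, -1.25, -0.78 and -0.59 at 60 days, and -2.33, -1.30, -1.01 and -1.22 in resistant tumours. Its differences from untreated tumours were 0.17 ± 0.37 at 4 days, 0.39 ± 0.37 at 60 days and -0.05 ± 0.37 in resistance (adjusted p of 0.899, 0.622 and 0.983 by limma). Egr2, also called Krox20 and known in mice from myelinating Schwann cells, hindbrain and the hair shaft lineage, was above the reference in 15 of 16 biopsies. It had log2 ratios of 2.01, 1.63, 2.85 and 1.63 in untreated tumours, 3.13, 2.65, 2.00 and 3.39 at 4 days, 2.80, 3.03, 3.04 and 2.79 at 60 days, and -0.73, 1.96, 2.93 and 2.92 in resistant tumours. The 60-day biopsies lay close together, and resistant replicate 1 stood far below all others. Egr2 was 0.76 ± 0.62 at 4 days (adjusted p = 0.616 by limma), 0.89 ± 0.62 at 60 days (adjusted p = 0.482) and -0.26 ± 0.62 in resistance (adjusted p = 0.945), each relative to untreated tumours. Without resistant replicate 1, whose spread enters the error of every comparison, the same 60-day difference had an adjusted p of 0.132, and with the untreated and 60-day groups alone 0.0801. Without that biopsy the SD of Egr2 within groups was 0.50, against 0.96 with it.

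**Figure D2:**
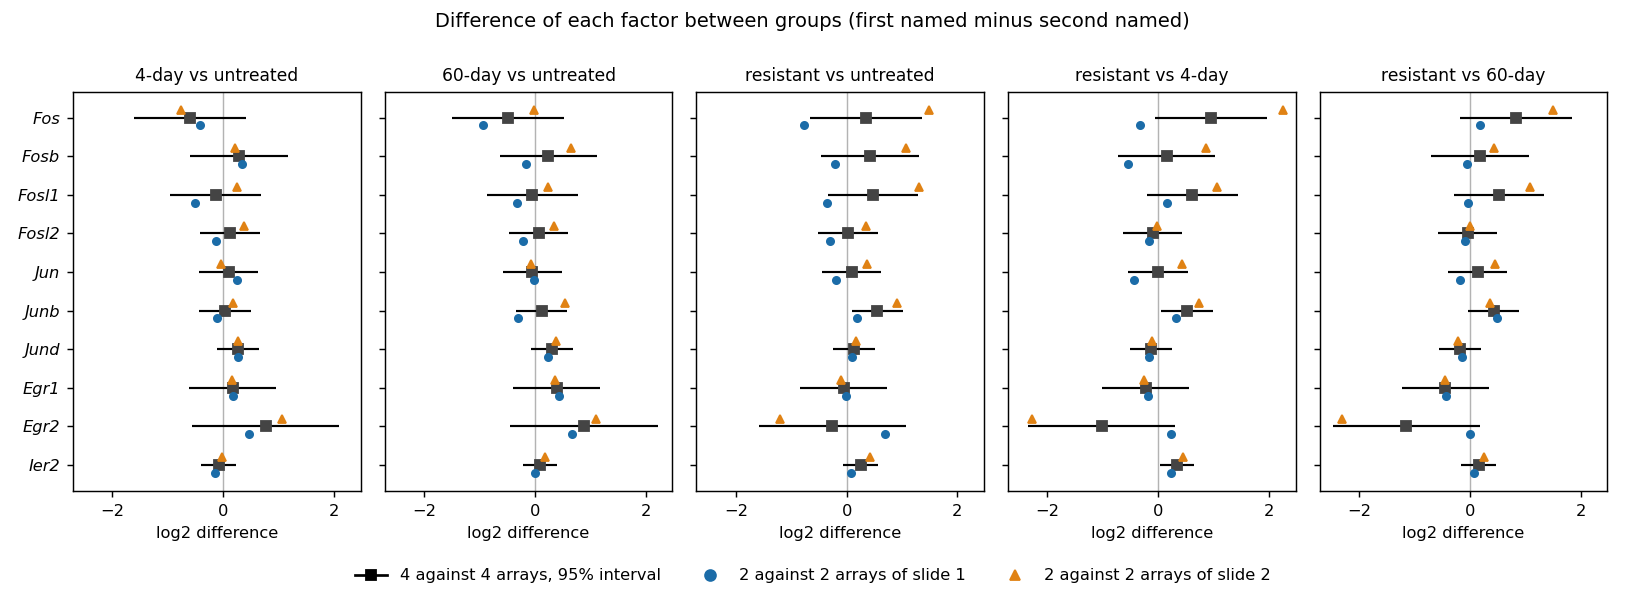
Log2 difference between groups (horizontal axis, first named minus second named) for the 10 factors in 5 comparisons, squares with 95% intervals for 4 against 4 arrays, and circles and triangles for the 2 against 2 arrays of slide 1 and slide 2. Apart from Junb in 2 panels and Ier2 in 1, all intervals cross 0, and the slides lie far apart for Fos in resistant relative to 4-day tumours (2.25 on slide 2 and -0.34 on slide 1).

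In the order of group means, resistant tumours were highest for Fos, Fosb, Fosl1, Junb and Ier2 and lowest for Egr1 and Egr2. The 4-day tumours were lowest for Fos, Fosl1 and Ier2, and the untreated tumours were lowest for Fosb, Fosl2, Junb and Jund. No pair of neighbours in any of these orders passed the test.

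Spread between biopsies of a group was large for several factors. The SD within groups was larger than in 97.2% of the genes tested for Egr2, in 93.6% for Fos (0.73), in 90.8% for Fosb (0.63), in 88.9% for Fosl1 (0.59) and in 87.8% for Egr1 (0.56). The median over all genes was 0.27. Fosl2, Jun and Junb lay above 71.0%, 70.6% and 61.3% of genes, Jund above 46.9% and Ier2 above 31.4%. Without the resistant group the SD was 0.56 for Fos, 0.52 for Fosb and 0.35 for Fosl1.

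Levels were also compared between the slides, in a fit with the 4 groups and the slide that was chosen after the data were seen. Slide 2 differed from slide 1 in 28.4% of all genes at an adjusted p under 0.05, and in 5 of the 10 factors. Jun was higher on slide 2 by 0.49 ± 0.12 (adjusted p = 0.0107 by limma), Jund by 0.31 ± 0.10 (adjusted p = 0.0293) and Fosb by 0.68 ± 0.24 (adjusted p = 0.0488). Jun and Jund were higher on slide 2 in all 4 groups. Fosb differed between the slides by 0.19 in untreated tumours, 0.07 at 4 days, 0.98 at 60 days and 1.48 in resistance, and in the last pair of groups the slide coincides with the title code. Egr1 was lower on slide 2 by -0.65 ± 0.20 (adjusted p = 0.0276) and Fosl2 by -0.42 ± 0.14 (adjusted p = 0.0402), both in all 4 groups. With median centring in place of loess the slide differences of Fosb, Jun and Jund had the other sign, at -0.05, -0.20 and -0.41. That scaling moved the median of all genes between the slides to -0.53, against 0.02 with loess. Relative to the median of all genes, slide 2 minus slide 1 with median centring was 0.48 for Fosb, 0.33 for Jun, 0.12 for Jund, -0.82 for Egr1 and -0.62 for Fosl2, with the signs they had under loess. The count of factors past the threshold ranged from 1 to 6 over the scalings and omissions tried. The 6 came with median centring, which also called more of all genes than loess did. With 1 array left out the factors numbered 1 to 5, beside 5101 to 7020 of all 21985 genes. The count of factors was 1 without 60-day replicate 1, without resistant replicate 3, without untreated replicate 3 or with Cy5 alone. The slide as a block brought no factor past the threshold between groups, with a lowest adjusted p of 0.193 for Jund at 60 days relative to untreated tumours.

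The split inside the resistant group coincided with both the slide and the title code, which cannot be told apart. Slide 2 minus slide 1 among resistant biopsies was 1.86 for Fos, 1.53 for Fosl1, 1.48 for Fosb and 1.00 for Jun, and -2.31 for Egr2 and -0.70 for Egr1. With median centring, which moved the median of all genes here to -0.80, these 6 differences relative to that median were 1.45, 1.22, 1.22, 0.70, -2.45 and -0.95. Without that adjustment Jun was at -0.10, with the sign turned. The same slide 2 biopsies had the highest granulocyte markers of all 16, with a mean log2 ratio over 5 genes of 5.18 and 4.16, against 2.86 and 3.06 on slide 1. Their 6 endothelial markers were also the highest, at 2.37 and 2.23 against 1.18 and 1.44. So were their 3 erythroid markers, at 3.52 and 4.21 against 2.07 and 2.29. Over 16 arrays granulocyte markers had r = 0.71 with Fos, 0.75 with Fosl1, 0.45 with Fosb and 0.54 with Jun. Without resistant replicate 1 and 60-day replicate 4 these were 0.59, 0.69, 0.46 and 0.46. Under 4 scalings they were 0.53 to 0.74 for Fos and 0.55 to 0.75 for Fosl1. Endothelial markers had r = 0.61 with Fos, 0.76 with Fosl1, 0.72 with Fosb and 0.93 with Jun. Without resistant replicates 1 and 2 the endothelial values were 0.14, 0.46, 0.55 and 0.90. Under 4 scalings they were 0.23 to 0.76 for Fosl1 and 0.03 to 0.93 for Jun. Erythroid markers had r = 0.69 with Fos and 0.70 with Jun, and 0.31 and 0.41 without resistant replicates 1 and 2. Under median centring the erythroid values over 16 arrays were 0.43 for Fos and -0.09 for Jun. The part of these cells in the split was not tested.

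Across the 16 arrays, which share 2 slides and 1 reference RNA, 25 of the 45 pairs of factors had a Pearson correlation above 0, with a median of 0.24. Junb and Ier2 followed each other most closely, with r = 0.82 over all arrays, 0.96 within slide 2 and 0.60 within slide 1, and 0.71 to 0.90 under 4 scalings. Egr1 and Egr2 had r = 0.69 (0.64 within slide 2, 0.76 within slide 1, and 0.69 to 0.84 under the scalings). Fosb followed Jund (r = 0.80) and Jun (r = 0.79), with 0.42 and 0.61 under median centring. Fosb, Jun and Jund were also higher on slide 2, by 0.68, 0.49 and 0.31, and this shift enters their r over both slides. The part of the slide in these r values was not tested. Fos and Egr2 ran opposite, with r = -0.76 (-0.70 within slide 2 and -0.90 within slide 1), and with r = -0.27 under median centring. Fosl1 and Egr2 had r = -0.64, which became 0.02 without resistant replicates 1 and 2. Fos and Fosl1 had r = 0.68, and 0.20 without the same pair of biopsies. All of these are descriptions of 16 arrays, with no test.

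**Figure D3:**
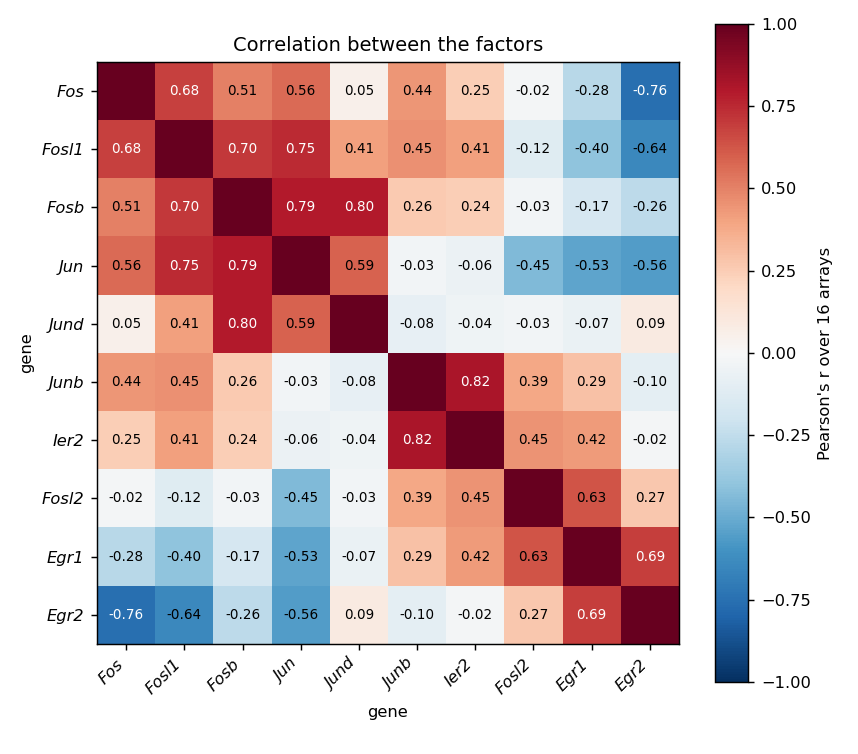
Pearson correlation between the 10 factors over 16 arrays, with the value printed in each cell and blue to red for -1 to 1. Fos, Fosl1, Fosb, Jun and Jund form one block of positive values (except near 0 for Fos and Jund, 0.05). Junb with Ier2 (0.82) and Egr1 with Egr2 (0.69) form pairs. The slides are pooled, and Fosb, Jun and Jund were higher on slide 2.

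The genes most like Fos over the 16 arrays were Saa3, Kng2, Ms4a4a, Notch4 and Mefv, with r of 0.87 to 0.89 out of 21494 genes compared. Without resistant replicates 1 and 2 their r was 0.70 to 0.77 over 14 arrays, and with median centring 0.62 to 0.83. Those most like Fosl1 were Nwd1, Mogat2, Spsb1, Grem1 and Tnfrsf23, with r of 0.89 to 0.92, of 0.64 to 0.79 without those 2 biopsies, and of 0.41 to 0.77 with median centring.

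Several factors moved with markers of other cell types in the biopsy. Of 120 pairs of a factor and 1 of 12 marker or handling lists, the strongest was Jun with 6 endothelial markers, with r = 0.93 over 16 arrays, 0.95 within slide 2 and 0.79 within slide 1. It was 0.90 without resistant replicates 1 and 2. Under other scalings it was 0.77 with the processed signals, 0.87 with Cy5 alone and 0.03 with median centring. Endothelial markers had mean log2 ratios of 1.08 to 1.96 in untreated tumours, 1.35 to 1.77 at 4 days, 1.37 to 1.91 at 60 days and 1.18 to 2.37 in resistant tumours, with all 6 above background on every array. Egr1 ran opposite to 8 fibroblast markers, with r = -0.83 (-0.84 within slide 2 and -0.72 within slide 1), with -0.82 from the processed signals, -0.76 from Cy5 alone and 0.0068 under median centring. Egr2 followed 6 hair markers, the shaft keratins Krt31, Krt34, Krt85 and Krt86 and the inner root sheath keratins Krt27 and Krt71. Its r with them was 0.82 (0.89 within slide 2 and 0.79 within slide 1), and 0.80 to 0.86 under the 4 scalings. Without resistant replicate 1 and untreated replicate 4, the 2 biopsies lowest in hair markers, it was 0.72. Hair markers had mean log2 ratios of 1.60 to 4.04 in untreated tumours and 3.89 to 4.81 at 4 days. They were at 4.23 to 4.53 at 60 days and 1.58 to 4.24 in resistant tumours, with all 6 above background throughout. The part of skin, vessel and stromal cells in the levels of the factors was not tested. Handling stress genes had mean log2 ratios of -0.20 to 0.07 in untreated, -0.15 to 0.12 in 4-day, -0.10 to 0.29 in 60-day and -0.25 to -0.01 in resistant tumours. Egr2 followed them with r = 0.67 over 16 arrays (0.76 within slide 2 and 0.85 within slide 1), with 0.76 without 60-day replicates 1 and 2 and 0.67 to 0.85 under the 4 scalings. Egr1 had r = 0.42 with them, 0.66 without the same 2 biopsies and 0.42 to 0.90 under the scalings. The part of tissue handling was not tested.

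**Figure D4:**
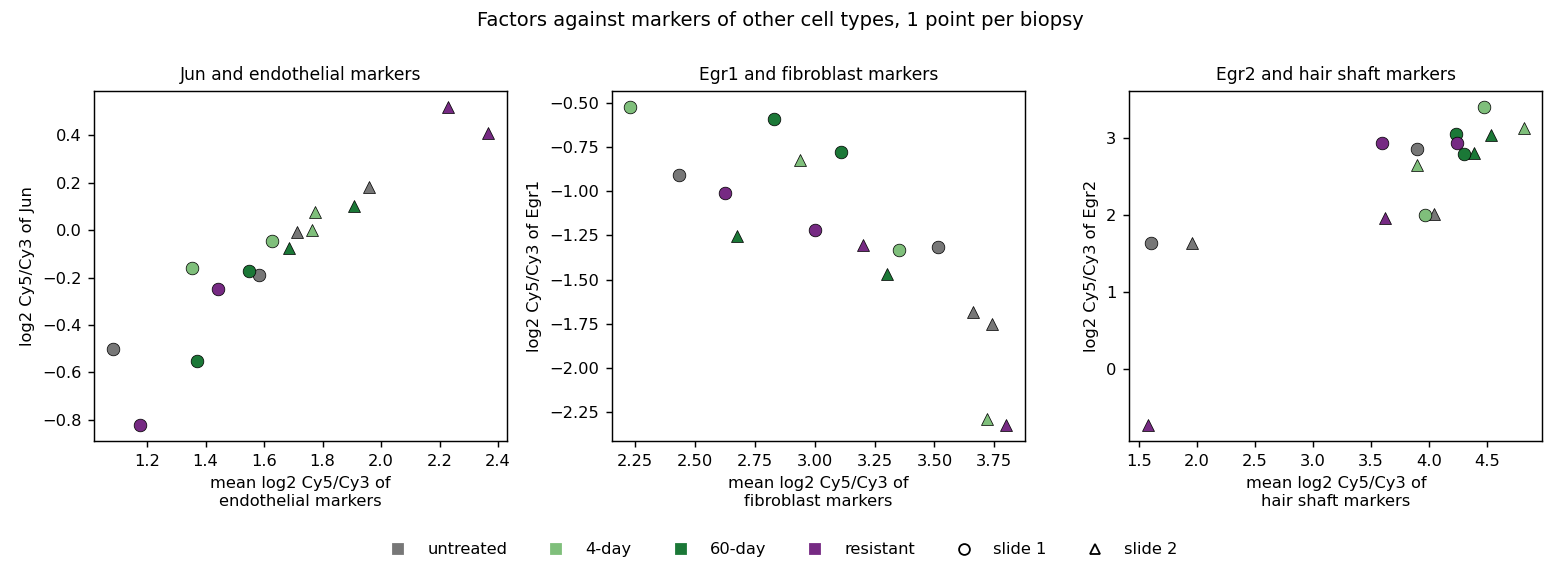
Log2 ratio of Jun, Egr1 and Egr2 (vertical axes) against the mean log2 ratio of endothelial, fibroblast and hair markers (horizontal axes). There is 1 point per biopsy, coloured by group, circles for slide 1 and triangles for slide 2. Jun rises with endothelial markers (r = 0.93), Egr1 runs against fibroblast markers (r = -0.83) and Egr2 rises with hair markers (r = 0.82). With median centring the first of these was 0.03 and the second 0.0068.

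Some genes of the same pathways passed the test. Of 12 ERK-dependent feedback and output genes tested, 3 fell at 4 days relative to untreated tumours, against 0.928% of all genes. None had a difference above 0, against 48.7% of all genes. Their median was -0.79, against -0.01 over all genes. Ccnd1, which encodes cyclin D1, averaged 0.12 at 4 days, against 2.51 in untreated tumours, and fell by 2.40 ± 0.30 (adjusted p = 0.00224 by limma), and Spry4, an inhibitor of receptor signalling, fell by 1.87 ± 0.36 (adjusted p = 0.0285). Dusp6, the phosphatase that acts on ERK, fell by 0.94 ± 0.19 (adjusted p = 0.0339). Ccnd1 passed the threshold under all 26 alternatives with a test, and Spry4 and Dusp6 under 17 of 26. The Spry4 and Dusp6 calls were both lost with median centring and with the title code as a random block. At 60 days Dusp6 fell by 0.98 ± 0.19 (adjusted p = 0.0345 by limma), 10 of 12 genes were below 0 and the median was -0.35. Of all genes 0.469% were called lower then and 50.2% were above 0. This Dusp6 call passed under 16 of 26 alternatives. It was lost with median centring, with the title code as a random block and without any 1 of the 60-day arrays. It was also lost without 4-day replicate 1 and without untreated replicate 1, 2 or 4. In resistance none passed, and the median was -0.30 against 0.01 over all genes, with Dusp6 at -0.88 ± 0.19 (adjusted p = 0.125 by limma). Relative to 4-day tumours, 11 of 12 were above 0 in resistant tumours (median 0.39, against 51.9% of all genes above 0) and 11 of 12 at 60 days (median 0.31, against 54.5%). Resistant relative to 60-day tumours had 8 of 12 above 0 with a median of 0.07, against 49.4% of all genes, and none passed in these 3 comparisons.

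Of 17 genes with known AP-1 sites in their control regions, 1 fell at 4 days relative to untreated tumours, against 0.928% of all genes. This was Mmp13, a collagenase, lower by 1.94 ± 0.41 (adjusted p = 0.0409 by limma). Mmp13 passed under 10 of 26 alternatives. At 4 days 3 of the 17 had a difference above 0, against 48.7% of all genes, and the median was -0.80 against -0.01 over all genes. At 60 days 2 were above 0, against 50.2% of all genes, and the median was -0.67. Timp1, a protease inhibitor, was then at -1.89 ± 0.54 (adjusted p = 0.0973). In resistant relative to untreated tumours 8 were above 0, against 52.2% of all genes, with a median of -0.0059, and none passed. In resistant relative to 4-day tumours 16 of 17 were above 0, against 51.9% of all genes, with a median of 0.89, and none passed, with Mmp9 at 2.13 ± 0.55 (adjusted p = 0.438). In resistant relative to 60-day tumours 15 of 17 were above 0, against 49.4% of all genes, with a median of 0.80. These comparisons share the 4-day, 60-day or resistant arrays, and a link between these genes and the factors was not tested. Several of these genes are also made by macrophages and granulocytes. The 5 granulocyte markers had mean log2 ratios of 2.97 to 3.59 in untreated, 2.24 to 2.95 in 4-day, 1.38 to 2.97 in 60-day and 2.86 to 5.18 in resistant tumours, and their part was not tested.

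**Figure D5:**
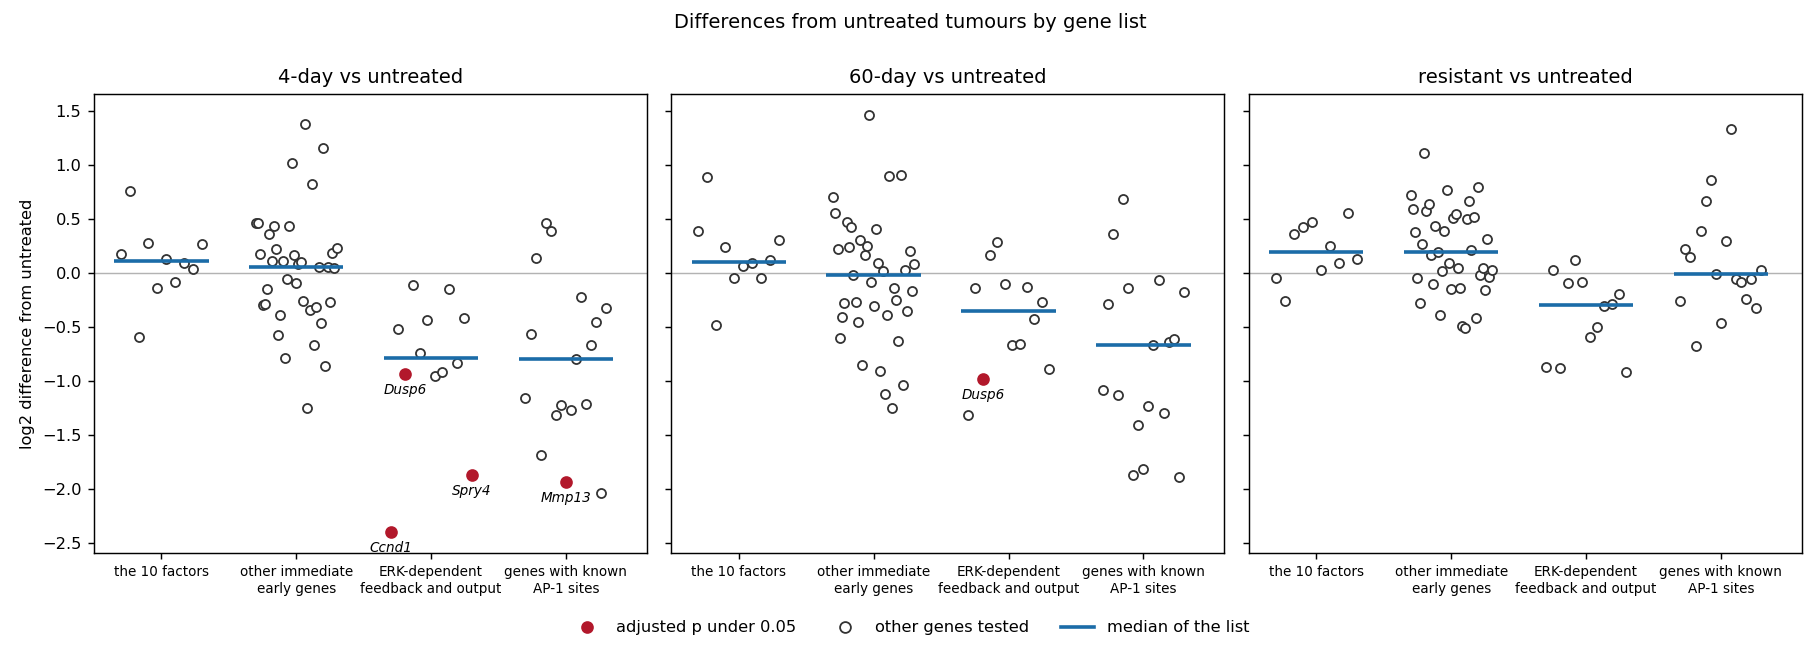
Log2 difference from untreated tumours (vertical axis) for each gene of 4 lists at 4 days, at 60 days and in resistance, filled points for an adjusted p under 0.05 and blue lines for list medians. The 10 factors are centred at 0.11, 0.11 and 0.19, while ERK-dependent genes have medians of -0.79, -0.35 and -0.30 and genes with known AP-1 sites -0.80, -0.67 and -0.01.

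The remaining immediate early genes gave no call. Of 37 tested, 21 had a difference above 0 at 4 days, 18 at 60 days and 25 in resistance, each relative to untreated tumours. Of all genes 48.7%, 50.2% and 52.2% were above 0. The 37 had medians of 0.06, -0.02 and 0.20. Those with the lowest p were Per1, a clock gene, at 1.38 ± 0.34 at 4 days (adjusted p = 0.0611 by limma), Ier5l at -0.85 ± 0.24 at 60 days (adjusted p = 0.0982) and Dusp1, a phosphatase of stress kinases, at 1.11 ± 0.22 in resistance (adjusted p = 0.105). Among 13 other bZIP factors that can pair with AP-1 proteins none passed, and Batf3, known from dendritic cells, was at -1.03 ± 0.30 at 60 days relative to untreated tumours (adjusted p = 0.105 by limma). The EGR corepressors Nab1 and Nab2 were within 0.30 of the untreated level at 4 days, 60 days and resistance, and Egr3 and Egr4 were too dim to test. Of 17 kinases and factors upstream of these promoters 1 fell at 4 days relative to untreated tumours, against 0.928% of all genes. This was the ETS factor Elk3, lower by 1.12 ± 0.23 (adjusted p = 0.0331 by limma), which passed under 15 of 26 alternatives. Elk3 was at -0.94 ± 0.23 at 60 days (adjusted p = 0.0632). Of 9 handling stress genes, 1 fell at 4 days relative to untreated tumours, against the same 0.928% of all genes. This was the chaperone gene Hsp90aa1, lower by 0.54 ± 0.12 (adjusted p = 0.0453 by limma), which passed under 9 of 25 alternatives.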

How the data were processed

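Tumour RNA of 16 biopsies was hybridised to 2-colour Agilent arrays. Per the file headers, each spot has mean and background intensity values read by Agilent Feature Extraction 10.7.3.1, processed intensity values, and a log10 ratio of the red over the green channel. Per the file headers, the other columns are 0 or 1 flags that mark outlying, saturated or clearly detected spots. The log2 ratios of the deposited value table had a slope of 0.993 on the scanner ratios and array medians of -0.194 to -0.0638, and 21.6% to 40.2% of an array's values were missing, with no rule stated.

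Mean intensities were background-corrected by normexp (offset 50) and normalized by loess within each array with limma 3.58.1 in R 4.3.3. Outlier spots (0.550% of values) were set missing, and the 59305 spots were averaged to 55681 probes. Probes above background in Cy5 on at least 4 arrays were kept (30486), and the brightest probe stood for a gene. For 19887 probes the symbol was taken from RefSeq by accession. All 4 groups were fitted in 1 limma model, with Benjamini-Hochberg adjustment over all 21985 genes and a threshold of 0.05. The fit was tested on simulated data. The number of arrays limits the precision.

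The 10 factors and the gene lists were chosen with earlier results of these data known. Named are all factors, list genes past the threshold or otherwise those with the lowest p, and the 5 genes most correlated with Fos and with Fosl1. The alternatives were other signals, scalings, filters and probe rules, the slide as a block, the title code as a random block, 2 groups alone and each array left out. Promoter windows came from a RefSeq table of GRCm38.p6. Probe positions, given on mm9, were not used.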

Additional observations from a re-analysis of the deposited data

Results flagged for a closer look

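Among the 40 sets of 4 biopsies, 10 factors in 4 groups, 2 biopsies stood far from the other 3 of their group by Dixon's test at the 95% level, which chance gives in about 1 in 20 groups. Ier2 was -0.65 in 60-day replicate 4, above the other 60-day biopsies. Fosl1 was -2.60 in untreated replicate 1, below the other untreated biopsies.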

How the results depend on the processing

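No factor passed the threshold in any of 1554 differences recomputed with a test, of which 70 had another sign than reported. Of 120 differences within 1 slide, which had no test, 28 had another sign. Over both kinds 25 moved by more than the SD within groups. The lowest adjusted p-values were 0.0801 for Egr2 at 60 days relative to untreated tumours, with these groups fitted alone, and 0.0915 for Junb in resistant relative to untreated tumours without untreated replicate 3 (limma). The number of genes called was less stable. For 4-day relative to untreated tumours (295 genes) it was 130 with the processed signals, 104 with the deposited value table, 12 with median centring, 526 with Cy5 alone (20% of them higher, against 30.8%), 645 with the slide as a block, 54 with the title code as a random block, 29 with 2 groups alone, and 45 (without untreated replicate 4) to 702 (without resistant replicate 1) with 1 array left out. For 60-day relative to untreated tumours (180 genes) the same settings gave 77, 74, 12, 618 with the slide block, 14 with the code block, 1258 with 2 groups alone, and 22 (without untreated replicate 2) to 1138 (without resistant replicate 1). For resistant relative to untreated tumours (4 genes) it was 1 with median centring, 13 with Cy5 alone, 14 with the slide block, 2 with the code block, 1 with 2 groups alone, and 2 (without resistant replicate 3) to 176 (without untreated replicate 3). For resistant relative to 4-day tumours (1 gene) it was 2 with the value table or the mean of all probes, 7 with Cy5 alone, 8 with the slide block, 0 with 2 groups alone, and 1 to 5 (without 60-day replicate 1). The slide block gave 1 gene for 60-day relative to 4-day tumours, and leaving out arrays gave 0 to 1 (without resistant replicate 2) there and for resistant relative to 60-day tumours. Between slides, 5 factors and 6235 genes were called. The factors were 3 with the processed signals or the value table, 1 with Cy5 alone and 1 to 5 with 1 array left out, and the genes 14846 with median centring, 1668 with Cy5 alone and 5101 to 7020 with 1 array left out. With median centring Fosb was -0.052, Jun -0.20 and Jund -0.41, and with Cy5 alone Ier2 was 0.32. The alternatives for the slide term, the correlations and the spread were chosen after seeing the data. No paired analysis was possible because the replicate numbers follow accession order and pair no biopsies. The value table lacked Fosl2. For Junb 1 array was not above background.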
